A study of Arabidopsis thaliana with 30 samples.

Results

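The gene set described here holds 70 Arabidopsis thaliana genes whose transcripts were higher after 3 h of high light than at 0 h in each of 5 lines, and whose high-light level in the flu mutant stayed close to that of wild type. They were chosen from 22746 non-control probe sets on group means of the log2 signal, a scale on which 1 unit is a doubling. A probe set was taken if it is matched to 1 gene, if its 3 h mean exceeded its 0 h mean by at least 2 in every line, and if the 3 h means of flu and wild type differed by less than 0.75. Of the 239 probe sets past the response threshold in all 5 lines, 107 are matched to 1 gene, out of 13513 such probe sets on the array, and 78 of these lay inside the flu margin. Of those 78, 8 were left out by name because the rule excludes their families or symbols, among them COR15A, COR27, GI, UGT78D2 and UGT76E11. The 5 high-light responses and the difference of flu from wild type at 3 h are therefore what chose the genes, and they are given as descriptions without a test.

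RNA came from 12-day-old Col-0 seedlings without roots that had grown on MS agar with 1% sucrose and had spent 7 days in continuous dim light at 10 µE m-2 s-1. The 0 h groups received no high light, and the 3 h groups received 3 h at 1000 µE after 3 h in the dark. The groups were wild type, the flu mutant, the mbs1-1 mutant, mbs1-1 with an RNA interference construct against MBS2 (RNAi-MBS2/mbs1-1) and plants overexpressing MBS1 from the 35S promoter (35S:MBS1), each at both times with 3 biological replicates, 30 arrays in all. The sources used here do not say whether the 0 h groups were harvested before or after the dark period. The 3 h groups thus differ from the 0 h groups in high light, in the hours passed and possibly in darkness, and these cannot be told apart. No probe set is matched to MBS1, MBS2 or FLU alone, so the genotypes could not be checked on the arrays. As RNA was taken from whole shoots, a change in the number of cells of a type and a change in RNA per cell cannot be told apart.

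Strong light drives more excitation into the photosystems than carbon fixation can use, and leaves respond within hours with pigments that screen light, with chaperones, with enzymes that repair oxidised molecules and with a reset of photoreceptor signalling. FLU holds back chlorophyll precursor synthesis in the dark, so a flu plant moved from dark to light forms singlet oxygen in its plastids. MBS1 is a small zinc-finger protein known to be needed for part of the plant's response to singlet oxygen.

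The mean signal was brightest on mbs1-1 3 h replicate 1 at 6.96 and wild type 0 h replicate 1 at 6.88 and ran from 6.70 to 6.77 elsewhere, and arrays of 1 group correlated at 0.983 to 0.996. The photosynthesis genes RCA and PSAE-1 had group means of at least 12.08 and 13.10, while among 4 measured root genes EXPA7 and LBD16 did not exceed 3.07 and 3.85. The group means of EXPA18 lay between 4.61 and 5.52, and it was called lower at 3 h in 4 of the 5 lines. The last, PYK10, a beta-glucosidase abundant in roots and in the hypocotyl, was at 11.37 or above in every group. Between the 3' and 5' ends of actin the control signal dropped by 6.04 to 6.78 at 0 h and 6.17 to 7.02 at 3 h, between those of GAPDH by 3.30 to 3.98 and 3.14 to 3.79, and the 25S rRNA control read 4.16 to 5.44 and 3.70 to 4.84. Their part in the responses was not tested.

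Across the 70 genes the mean response over the 5 lines had a median of 2.84 and ran from 2.20 to 4.73, with 28 genes at 3 or more and 4 genes at 4 or more. Over all probe sets the median response of a line was between -0.10 and 0.10. The chosen genes started below the array's centre and ended above it. Their mean level had a median of 5.98 at 0 h and 9.22 at 3 h, against 6.85 and 6.91 for all probe sets. For each of the 70 genes, all 15 arrays at 3 h lay above all 15 arrays at 0 h, which held for 10.8% of all probe sets. The rule all but fixes that count, and nothing is read from it. At 0 h, 19 of the genes had a mean level under 5, towards the lower end of the scale. The median response of these 19 was 2.91 and that of the other 51 was 2.65.

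**Figure D1:**
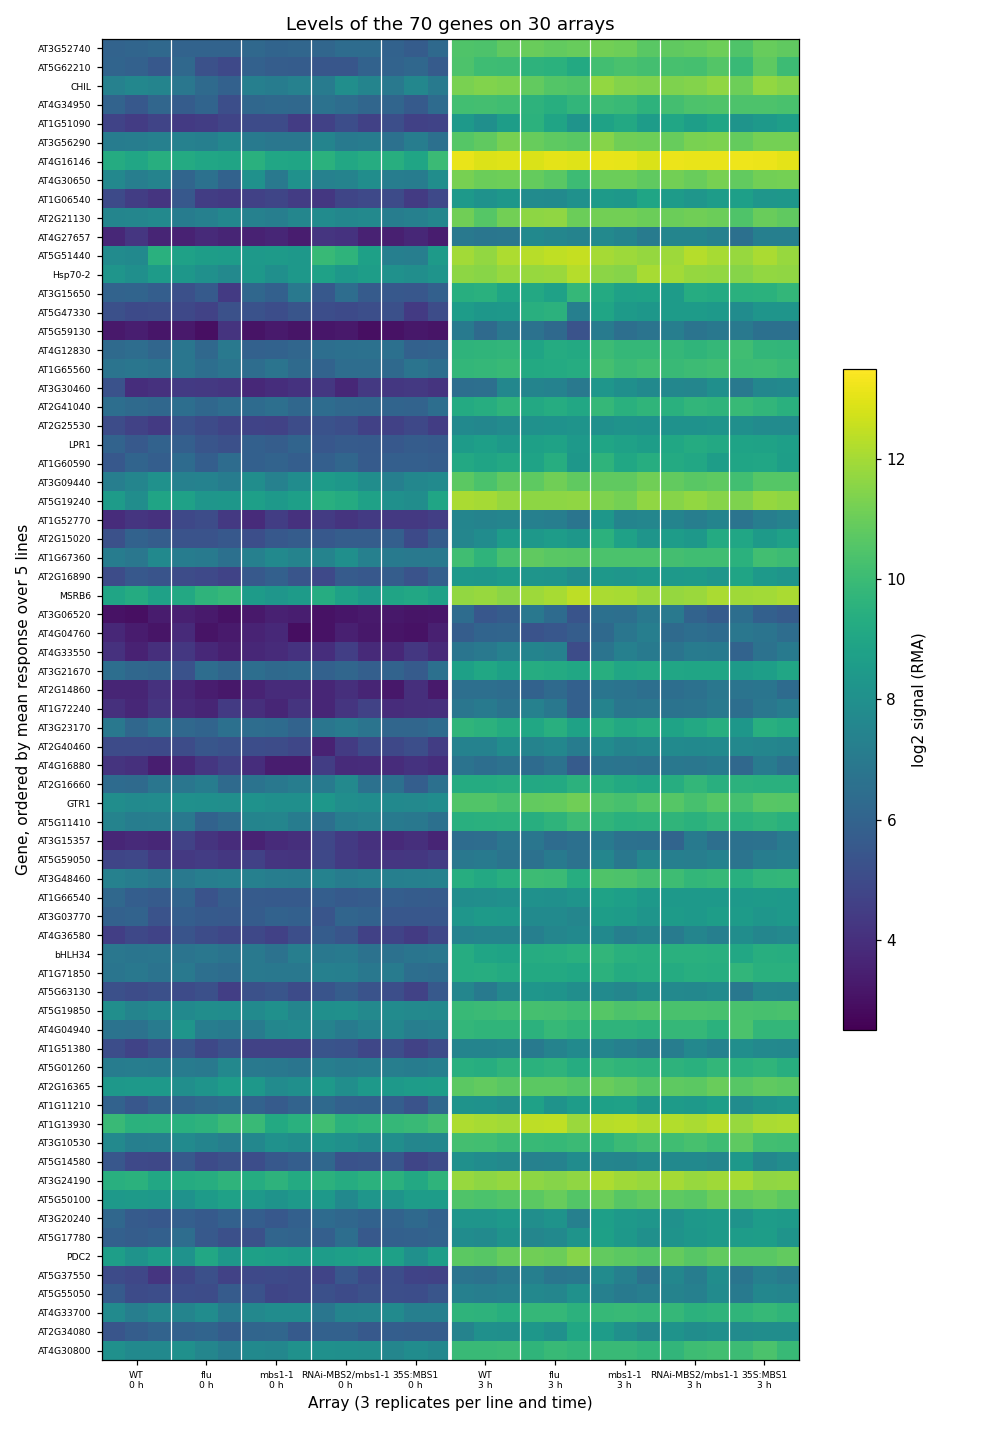
Log2 signal of the 70 genes (rows) on the 30 arrays (columns), with 3 replicate columns for each line and time and colour giving the level. The 0 h columns are dark for most genes and the 3 h columns light in all 5 lines, with the mean level of the set's most abundant gene, AT4G16146, at 13.06 at 3 h.

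The responses of the 5 lines were close for most genes but not equal. The range from a gene's smallest to its largest response had a median of 0.75, lay under 0.5 for 14 genes and under 1 for 51, and reached from 0.20 to 1.63. By line, the median response was 2.73 in wild type, 2.64 in flu, 2.91 in 35S:MBS1, 2.94 in mbs1-1 and 2.71 in RNAi-MBS2/mbs1-1. Over all probe sets it was -0.07, -0.05, -0.08, 0.10 and -0.10 in the same order. Wild type gave the smallest of the 5 responses for 22 genes and the largest for 4. The flu line gave the smallest for 20 and the largest for 20, and mbs1-1 gave the smallest for 9 and the largest for 24. RNAi-MBS2/mbs1-1 gave the smallest for 12 and the largest for 8, and 35S:MBS1 the smallest for 7 and the largest for 14. The brighter arrays belong to mbs1-1 at 3 h and wild type at 0 h, and their part in these medians and counts was not tested. Differences of response between lines were not tested, since the rule used the responses.

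**Figure D2:**
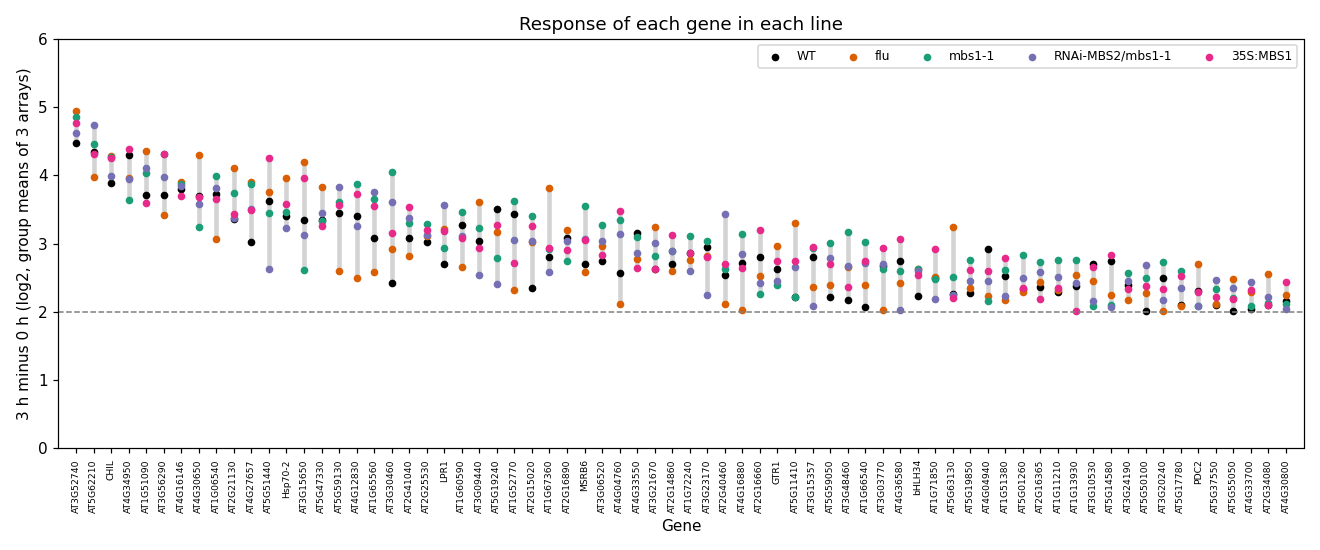
Response to high light (3 h minus 0 h group mean, log2) of each of the 70 genes, with 1 point for each line. The points of a gene lie within 1.63 of each other, and the median range is 0.75.

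Blue light is perceived by cryptochromes and red light by phytochromes, and 4 genes of the set encode proteins placed in or near these pathways or a transcription factor. AT3G52740 encodes a small protein that binds cryptochrome and inhibits it, and it had the largest mean response of the set, 4.73. At 0 h AT3G52740 read 6.01, 6.08 and 6.20 in wild type, 6.0, 6.0 and 5.98 in flu, 5.96, 5.70 and 6.24 in 35S:MBS1, 6.20, 6.02 and 6.12 in mbs1-1 and 6.13, 6.39 and 6.39 in RNAi-MBS2/mbs1-1. At 3 h AT3G52740 gave 10.47, 10.41 and 10.82 in wild type, 11.0, 10.87 and 10.96 in flu, 10.45, 10.92 and 10.81 in 35S:MBS1, 11.17, 11.06 and 10.69 in mbs1-1 and 10.81, 10.92 and 11.06 in RNAi-MBS2/mbs1-1. All 0 h arrays sat within a narrow band and all 3 h arrays within another far above it, with wild type and 35S:MBS1 holding the lowest 3 h values. At 3 h the flu arrays lay just above those of wild type, and every other pair of lines overlapped. Responses of AT3G52740 ran from 4.47 in wild type to 4.95 in flu. AT1G52770, a member of the family of the phototropin partner NPH3, averaged 4.33 at 0 h and 7.36 at 3 h, and its responses spread more widely, from 2.31 in flu to 3.63 in mbs1-1. AT2G16365, whose protein binds phytochrome B, averaged 8.29 at 0 h and 10.75 at 3 h.

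bHLH34, a basic helix-loop-helix transcription factor, was among the 6 genes whose responses differed least between lines. At 0 h bHLH34 read 6.87, 6.79 and 6.80 in wild type, 6.74, 6.87 and 6.68 in flu, 6.59, 6.78 and 6.87 in 35S:MBS1, 6.94, 6.63 and 7.21 in mbs1-1 and 6.89, 7.05 and 6.65 in RNAi-MBS2/mbs1-1. At 3 h bHLH34 gave 9.30, 8.98 and 8.90 in wild type, 9.31, 9.35 and 9.49 in flu, 9.11, 9.40 and 9.34 in 35S:MBS1, 9.75, 9.49 and 9.41 in mbs1-1 and 9.47, 9.47 and 9.45 in RNAi-MBS2/mbs1-1. The 0 h arrays of all lines overlapped, and at 3 h wild type held the lowest values, overlapping with 35S:MBS1. Responses of bHLH34 ran from 2.24 in wild type to 2.63 in mbs1-1.

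Protein folding and turnover was represented by 7 genes. These are chaperones, which keep other proteins from aggregating, together with proteases and a RING-type protein of the kind that marks proteins for breakdown. Their median mean response was 3.41, the highest of the role groups. AT2G21130 encodes a cyclophilin, an enzyme that helps proteins fold by turning proline bonds. At 0 h AT2G21130 read 7.52, 7.54 and 7.69 in wild type, 7.12, 7.27 and 7.58 in flu, 7.16, 7.27 and 7.53 in 35S:MBS1, 7.34, 7.22 and 7.54 in mbs1-1 and 7.79, 7.58 and 7.69 in RNAi-MBS2/mbs1-1. At 3 h AT2G21130 gave 11.13, 10.58 and 11.15 in wild type, 11.64, 11.66 and 11.01 in flu, 10.48, 10.97 and 10.80 in 35S:MBS1, 11.16, 11.15 and 11.01 in mbs1-1 and 11.01, 11.13 and 11.02 in RNAi-MBS2/mbs1-1. At 0 h RNAi-MBS2/mbs1-1 was highest on average, overlapping only with wild type, while at 3 h flu held the highest arrays and wild type and 35S:MBS1 the lowest. Responses of AT2G21130 ran from 3.37 in wild type to 4.11 in flu.

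AT5G51440, a small heat shock protein of the mitochondrion, had the widest range of responses in the set, 1.63, and it is also among the 6 highest genes at 3 h. At 0 h AT5G51440 read 7.79, 7.74 and 9.48 in wild type, 8.80, 8.62 and 8.58 in flu, 7.25, 7.19 and 8.51 in 35S:MBS1, 8.44, 8.51 and 8.35 in mbs1-1 and 9.90, 9.65 and 8.76 in RNAi-MBS2/mbs1-1. At 3 h AT5G51440 gave 12.0, 11.72 and 12.17 in wild type, 12.33, 12.43 and 12.52 in flu, 11.82, 12.12 and 11.79 in 35S:MBS1, 12.03, 11.88 and 11.75 in mbs1-1 and 11.89, 12.27 and 12.04 in RNAi-MBS2/mbs1-1. At 3 h all lines lay close together, with flu highest. At 0 h the values were uneven: replicate 3 of wild type and replicate 3 of 35S:MBS1 stood above the other 2 of their groups, and RNAi-MBS2/mbs1-1 was highest on average. The responses ran from 2.63 in RNAi-MBS2/mbs1-1 to 4.26 in 35S:MBS1, and the line means were further apart at 0 h than at 3 h. At 0 h RNAi-MBS2/mbs1-1 exceeded wild type by 1.10, which did not pass the test (limma adjusted p = 0.429). Without wild type 0 h replicate 3 the difference was 1.67 with an adjusted p of 0.00503.

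Hsp70-2 and AT3G09440 both encode cytosolic HSP70 chaperones, which bind unfolded stretches of protein. At 0 h Hsp70-2 read 8.22, 7.97 and 8.53 in wild type, 8.32, 8.03 and 7.68 in flu, 8.06, 7.94 and 8.20 in 35S:MBS1, 8.36, 7.98 and 8.36 in mbs1-1 and 8.80, 8.37 and 8.60 in RNAi-MBS2/mbs1-1. At 3 h Hsp70-2 gave 11.63, 11.53 and 11.78 in wild type, 11.81, 11.83 and 12.29 in flu, 11.51, 11.72 and 11.69 in 35S:MBS1, 11.57, 11.49 and 12.05 in mbs1-1 and 11.96, 11.76 and 11.72 in RNAi-MBS2/mbs1-1. For Hsp70-2 the RNAi-MBS2/mbs1-1 arrays were highest on average at 0 h and overlapped only with wild type. At 3 h the flu arrays lay above those of wild type and 35S:MBS1 and overlapped with the other lines. Responses of Hsp70-2 ran from 3.23 in RNAi-MBS2/mbs1-1 to 3.96 in flu. AT3G09440 averaged 7.66 at 0 h and 10.74 at 3 h, with responses from 2.54 in RNAi-MBS2/mbs1-1 to 3.62 in flu. The HSP70 genes resemble each other in sequence, and whether their probes also take up signal from other copies was not tested.

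AT3G30460, the RING-type protein, had the next widest range. At 0 h AT3G30460 read 5.26, 3.95 and 4.07 in wild type, 4.38, 4.34 and 4.26 in flu, 4.27, 4.35 and 4.16 in 35S:MBS1, 3.78, 3.93 and 4.10 in mbs1-1 and 4.28, 3.71 and 4.31 in RNAi-MBS2/mbs1-1. At 3 h AT3G30460 gave 6.49, 6.50 and 7.57 in wild type, 7.46, 7.36 and 6.94 in flu, 6.93, 7.58 and 7.72 in 35S:MBS1, 8.30, 7.96 and 7.70 in mbs1-1 and 7.59, 7.57 and 7.97 in RNAi-MBS2/mbs1-1. One wild-type array at 0 h was well above every other 0 h array, and wild type 3 h replicate 3 was well above the other 2. The mbs1-1 arrays were the highest on average at 3 h but overlapped with RNAi-MBS2/mbs1-1 and 35S:MBS1. Responses of AT3G30460 ran from 2.43 in wild type to 4.05 in mbs1-1. AT5G59130, a subtilisin-type protease, was near the lower end of the scale at 0 h, with means of 3.23 at 0 h and 6.64 at 3 h. AT2G34080, a papain-type cysteine protease, averaged 5.82 at 0 h and 8.04 at 3 h.

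Of 8 genes for enzymes of metabolism and redox, CHIL had the largest response, 4.14. CHIL is a chalcone isomerase-like protein that aids flavonol and anthocyanin synthesis, the source of light-screening pigments. At 0 h CHIL read 7.34, 7.58 and 7.45 in wild type, 6.84, 6.29 and 5.90 in flu, 6.93, 7.60 and 7.01 in 35S:MBS1, 7.27, 7.12 and 7.33 in mbs1-1 and 7.09, 7.95 and 7.48 in RNAi-MBS2/mbs1-1. At 3 h CHIL gave 11.30, 11.40 and 11.31 in wild type, 10.84, 10.54 and 10.48 in flu, 11.09, 11.73 and 11.52 in 35S:MBS1, 11.71, 11.46 and 11.36 in mbs1-1 and 11.37, 11.47 and 11.67 in RNAi-MBS2/mbs1-1. The flu arrays were the lowest of all lines at both times and did not overlap with those of any other line. The other lines overlapped at 3 h, and at 0 h mbs1-1 lay just below wild type. With both levels lower, the response of flu remained close to the others, and the 5 responses ran from 3.89 in wild type to 4.28 in flu.

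MSRB6 encodes a methionine sulfoxide reductase, which repairs oxidised methionine in proteins, and is one of the 6 genes with the highest level at 3 h. At 0 h MSRB6 read 8.95, 9.29 and 8.79 in wild type, 9.12, 9.64 and 9.81 in flu, 8.94, 9.11 and 8.79 in 35S:MBS1, 8.54, 8.29 and 8.54 in mbs1-1 and 9.33, 8.78 and 8.41 in RNAi-MBS2/mbs1-1. At 3 h MSRB6 gave 11.70, 11.81 and 11.60 in wild type, 11.89, 12.06 and 12.39 in flu, 11.93, 11.98 and 12.10 in 35S:MBS1, 12.11, 12.06 and 11.85 in mbs1-1 and 11.78, 11.84 and 12.10 in RNAi-MBS2/mbs1-1. At 0 h the mbs1-1 arrays were low, overlapping only with RNAi-MBS2/mbs1-1, and at 3 h wild type was lowest, overlapping only with RNAi-MBS2/mbs1-1. Responses of MSRB6 ran from 2.59 in flu to 3.55 in mbs1-1.

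AT1G65560, a zinc-binding dehydrogenase, averaged 6.54 at 0 h and 9.86 at 3 h, and its responses ran from 2.58 in flu to 3.76 in RNAi-MBS2/mbs1-1. AT2G41040, a methyltransferase, averaged 6.30 at 0 h and 9.52 at 3 h. LPR1, a multicopper oxidase known from the root's response to low phosphate, averaged 5.68 at 0 h and 8.80 at 3 h. AT2G16890, a glycosyltransferase, averaged 5.36 at 0 h and 8.36 at 3 h with responses from 2.75 in mbs1-1 to 3.20 in flu. The rule leaves out UGT glycosyltransferases by symbol only, and the annotation gives AT2G16890 no UGT symbol. The smallest mean response of this group was that of PDC2, a pyruvate decarboxylase, at 2.30. The cytochrome P450 gene AT1G66540 is described with the line comparisons.

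Esterases, lipases and lipid proteins numbered 9 genes, with a median mean response of 2.91. Most belong to the alpha/beta-hydrolase or GDSL families, broad classes of enzymes that cut ester bonds. AT3G15650, an alpha/beta hydrolase, had both the largest mean response of the group and one of the widest ranges in the set. At 0 h AT3G15650 read 6.02, 6.03 and 5.79 in wild type, 5.17, 5.61 and 4.39 in flu, 5.53, 5.47 and 5.89 in 35S:MBS1, 6.16, 5.88 and 6.96 in mbs1-1 and 5.54, 6.45 and 5.67 in RNAi-MBS2/mbs1-1. At 3 h AT3G15650 gave 9.41, 9.49 and 8.97 in wild type, 9.12, 8.79 and 9.83 in flu, 9.49, 9.53 and 9.77 in 35S:MBS1, 9.22, 8.80 and 8.83 in mbs1-1 and 8.53, 9.29 and 9.21 in RNAi-MBS2/mbs1-1. At 0 h the flu arrays were lowest on average and 1 of them was far below the rest, while mbs1-1 replicate 3 was the highest of all. At 3 h the 35S:MBS1 arrays lay above those of mbs1-1 and RNAi-MBS2/mbs1-1, and the other lines overlapped. Responses of AT3G15650 ran from 2.62 in mbs1-1 to 4.19 in flu.

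AT4G12830, another alpha/beta hydrolase, had its smallest response in flu. At 0 h AT4G12830 read 6.30, 6.44 and 6.13 in wild type, 6.80, 6.20 and 6.95 in flu, 6.58, 5.90 and 6.0 in 35S:MBS1, 5.93, 5.96 and 6.14 in mbs1-1 and 6.47, 6.55 and 6.59 in RNAi-MBS2/mbs1-1. At 3 h AT4G12830 gave 9.64, 9.69 and 9.75 in wild type, 8.94, 9.29 and 9.20 in flu, 10.14, 9.79 and 9.73 in 35S:MBS1, 10.03, 9.81 and 9.82 in mbs1-1 and 9.84, 9.71 and 9.83 in RNAi-MBS2/mbs1-1. The flu arrays were the lowest at 3 h, below every array of the other lines, and 2 of the 3 were the highest at 0 h. Responses of AT4G12830 ran from 2.49 in flu to 3.88 in mbs1-1. AT5G47330, also an alpha/beta hydrolase, averaged 5.04 at 0 h and 8.48 at 3 h, with responses from 3.25 in 35S:MBS1 to 3.83 in flu. Its flu arrays at 3 h were far apart, at 9.42, 9.58 and 7.25, beside 8.59, 8.32 and 8.38 in wild type. Replicate 3 of flu lay below every 3 h array of the other lines and the other flu arrays above all of them, so its place inside the flu margin leans on that array. AT1G67360, a protein of the lipid droplet surface, averaged 7.23 at 0 h and 10.24 at 3 h. AT4G33550, of the lipid transfer protein family, averaged 3.93 at 0 h and 6.84 at 3 h. The alpha/beta hydrolases AT5G19850 and AT5G17780 and the GDSL lipase AT5G55050 had mean responses of 2.49, 2.34 and 2.24, and the GDSL lipase AT3G48460 is described with the line comparisons.

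Transporters and membrane proteins were the largest group with a known role, 10 genes with a median mean response of 2.85. AT4G34950, of the major facilitator superfamily of small-molecule carriers, led the group. At 0 h AT4G34950 read 5.99, 5.53 and 6.11 in wild type, 5.72, 6.03 and 5.13 in flu, 6.11, 5.59 and 6.36 in 35S:MBS1, 6.19, 6.28 and 6.23 in mbs1-1 and 6.64, 6.45 and 6.15 in RNAi-MBS2/mbs1-1. At 3 h AT4G34950 gave 10.17, 10.23 and 10.14 in wild type, 9.62, 9.41 and 9.76 in flu, 10.44, 10.43 and 10.35 in 35S:MBS1, 10.05, 9.96 and 9.59 in mbs1-1 and 10.20, 10.42 and 10.48 in RNAi-MBS2/mbs1-1. At 3 h flu was lowest, overlapping with mbs1-1, and RNAi-MBS2/mbs1-1 and 35S:MBS1 were highest on average. At 0 h mbs1-1 and RNAi-MBS2/mbs1-1 lay above wild type and flu and overlapped with 35S:MBS1. Responses of AT4G34950 ran from 3.63 in mbs1-1 to 4.39 in 35S:MBS1.

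AT1G51090, a protein with a heavy-metal-associated domain, was near the lower end of the scale at 0 h. At 0 h AT1G51090 read 4.70, 4.47 and 4.74 in wild type, 4.37, 4.51 and 4.74 in flu, 5.14, 4.61 and 4.72 in 35S:MBS1, 5.0, 5.02 and 4.45 in mbs1-1 and 4.62, 5.11 and 4.62 in RNAi-MBS2/mbs1-1. At 3 h AT1G51090 gave 8.45, 8.0 and 8.61 in wild type, 9.56, 8.92 and 8.18 in flu, 8.18, 8.42 and 8.66 in 35S:MBS1, 8.82, 9.15 and 8.60 in mbs1-1 and 9.01, 8.67 and 8.98 in RNAi-MBS2/mbs1-1. The lines overlapped at 0 h. At 3 h RNAi-MBS2/mbs1-1 lay just above wild type and 35S:MBS1, and flu had the widest spread. Responses of AT1G51090 ran from 3.60 in 35S:MBS1 to 4.35 in flu. AT4G30650 belongs to the RCI2 family of small membrane proteins induced by cold and salt. At 0 h AT4G30650 read 7.61, 7.19 and 7.41 in wild type, 6.10, 6.62 and 5.98 in flu, 7.16, 7.13 and 7.91 in 35S:MBS1, 8.06, 6.96 and 8.08 in mbs1-1 and 7.34, 7.40 and 7.91 in RNAi-MBS2/mbs1-1. At 3 h AT4G30650 gave 11.23, 11.03 and 11.06 in wild type, 10.89, 10.67 and 10.04 in flu, 10.87, 11.17 and 11.21 in 35S:MBS1, 11.02, 11.02 and 10.80 in mbs1-1 and 11.16, 10.99 and 11.25 in RNAi-MBS2/mbs1-1. The flu arrays were lower than those of every other line at 0 h. At 3 h flu was again lowest on average, with its replicate 1 overlapping with mbs1-1 and 35S:MBS1. Responses of AT4G30650 ran from 3.25 in mbs1-1 to 4.30 in flu.

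AT4G04760, of the sugar transporter family, was near the lower end of the scale at 0 h in every line and was among the genes with the widest range. At 0 h AT4G04760 read 3.74, 3.35 and 3.10 in wild type, 3.81, 3.07 and 3.29 in flu, 3.11, 3.05 and 3.48 in 35S:MBS1, 3.58, 3.75 and 2.90 in mbs1-1 and 3.03, 3.49 and 3.19 in RNAi-MBS2/mbs1-1. At 3 h AT4G04760 gave 5.75, 6.05 and 6.11 in wild type, 5.30, 5.48 and 5.75 in flu, 6.87, 6.74 and 6.45 in 35S:MBS1, 6.24, 6.80 and 7.21 in mbs1-1 and 6.31, 6.49 and 6.35 in RNAi-MBS2/mbs1-1. At 3 h every array of the 3 MBS1 lines (35S:MBS1, mbs1-1 and RNAi-MBS2/mbs1-1) lay above every wild-type and flu array. Responses of AT4G04760 ran from 2.12 in flu to 3.47 in 35S:MBS1. AT2G40460 belongs to the NRT1/PTR family of nitrate and peptide carriers. At 0 h AT2G40460 read 5.03, 5.01 and 4.97 in wild type, 5.07, 5.45 and 5.28 in flu, 4.89, 5.14 and 4.50 in 35S:MBS1, 5.10, 5.04 and 4.82 in mbs1-1 and 3.56, 4.40 and 4.96 in RNAi-MBS2/mbs1-1. At 3 h AT2G40460 gave 7.39, 7.37 and 7.89 in wild type, 7.41, 7.61 and 7.14 in flu, 7.65, 7.53 and 7.46 in 35S:MBS1, 7.80, 7.47 and 7.58 in mbs1-1 and 7.76, 7.73 and 7.75 in RNAi-MBS2/mbs1-1. At 3 h the lines lay close together. At 0 h RNAi-MBS2/mbs1-1 had 2 arrays below all others, and its replicate 3 lay among the other lines. Responses of AT2G40460 ran from 2.12 in flu to 3.44 in RNAi-MBS2/mbs1-1. At 0 h its level in RNAi-MBS2/mbs1-1 was lower than in wild type by a log2 difference of -0.70 that did not pass the test (limma adjusted p = 0.457), and without RNAi-MBS2/mbs1-1 0 h replicate 3 the difference was -1.02 with an adjusted p of 0.0243.

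AT3G21670, another NRT1/PTR carrier, averaged 6.11 at 0 h and 8.98 at 3 h. AT2G14860, of the family of peroxisomal membrane proteins, averaged 3.65 at 0 h and 6.49 at 3 h. The remaining carriers had mean responses of 2.65 for AT2G16660 of the major facilitator superfamily, 2.63 for GTR1, which moves glucosinolates across the plasma membrane, and 2.35 for the mitochondrial substrate carrier AT3G20240. None of these 5 genes is among the 6 with the widest range of responses.

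Kinases, ATPases and signalling proteins made up 8 genes, and 3 of the 6 genes with the narrowest range of responses were among them. AT4G16146, related to the phosphatase inhibitor ARPP19 of animals, had the highest level at 3 h and the narrowest range in the set. At 0 h AT4G16146 read 9.25, 9.0 and 9.38 in wild type, 9.23, 9.01 and 8.93 in flu, 9.38, 8.95 and 10.02 in 35S:MBS1, 9.48, 9.03 and 8.98 in mbs1-1 and 9.52, 9.09 and 9.31 in RNAi-MBS2/mbs1-1. At 3 h AT4G16146 gave 13.12, 12.94 and 12.95 in wild type, 12.89, 13.05 and 12.94 in flu, 13.21, 13.18 and 13.07 in 35S:MBS1, 13.15, 13.09 and 12.88 in mbs1-1 and 13.19, 13.12 and 13.13 in RNAi-MBS2/mbs1-1. The lines lay close together at both times, and 35S:MBS1 replicate 3 stood highest at 0 h. Responses of AT4G16146 ran from 3.70 in 35S:MBS1 to 3.91 in flu. AT2G25530 encodes an ATPase of the mitochondrial AFG1 type. At 0 h AT2G25530 read 5.06, 4.66 and 4.35 in wild type, 5.26, 5.01 and 4.76 in flu, 4.62, 4.89 and 4.49 in 35S:MBS1, 4.70, 4.67 and 5.04 in mbs1-1 and 5.27, 5.12 and 4.62 in RNAi-MBS2/mbs1-1. At 3 h AT2G25530 gave 7.73, 7.60 and 7.80 in wild type, 8.06, 8.11 and 8.20 in flu, 7.97, 7.83 and 7.80 in 35S:MBS1, 8.03, 8.16 and 8.10 in mbs1-1 and 8.10, 8.13 and 8.17 in RNAi-MBS2/mbs1-1. The 0 h arrays overlapped, and at 3 h the wild-type and 35S:MBS1 arrays lay below every array of the other lines. Responses of AT2G25530 ran from 3.02 in wild type to 3.29 in mbs1-1.

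AT4G33700 carries CBS domains, which bind adenosine nucleotides in other proteins. At 0 h AT4G33700 read 7.77, 7.22 and 7.56 in wild type, 7.48, 7.83 and 7.02 in flu, 7.77, 7.26 and 7.25 in 35S:MBS1, 7.62, 7.87 and 7.85 in mbs1-1 and 6.80, 7.47 and 7.50 in RNAi-MBS2/mbs1-1. At 3 h AT4G33700 gave 9.66, 9.61 and 9.41 in wild type, 9.82, 9.85 and 9.56 in flu, 9.71, 9.88 and 9.69 in 35S:MBS1, 9.88, 9.92 and 9.81 in mbs1-1 and 9.82, 9.56 and 9.67 in RNAi-MBS2/mbs1-1. At 0 h mbs1-1 was highest on average and lay above RNAi-MBS2/mbs1-1 without overlap, and at 3 h wild type had the lowest mean. Responses of AT4G33700 ran from 2.05 in wild type to 2.43 in RNAi-MBS2/mbs1-1. AT3G24190 is a kinase of the ABC1 family, whose plant members sit mostly in plastids and mitochondria, and it is among the 6 highest genes at 3 h. At 0 h AT3G24190 read 9.44, 9.52 and 9.08 in wild type, 9.29, 9.37 and 9.67 in flu, 9.59, 9.16 and 9.66 in 35S:MBS1, 9.32, 9.63 and 9.24 in mbs1-1 and 9.59, 9.29 and 9.54 in RNAi-MBS2/mbs1-1. At 3 h AT3G24190 gave 11.81, 11.65 and 11.75 in wild type, 11.65, 11.52 and 11.67 in flu, 12.04, 11.68 and 11.71 in 35S:MBS1, 12.14, 11.93 and 11.82 in mbs1-1 and 12.02, 11.80 and 11.94 in RNAi-MBS2/mbs1-1. The lines overlapped at 0 h, and at 3 h the flu arrays were the lowest on average. Responses of AT3G24190 ran from 2.17 in flu to 2.57 in mbs1-1.

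AT3G03770, a leucine-rich repeat kinase, averaged 5.71 at 0 h and 8.30 at 3 h. AT4G36580, an AAA-type ATPase, averaged 4.91 at 0 h and 7.49 at 3 h, with responses from 2.03 in RNAi-MBS2/mbs1-1 to 3.07 in 35S:MBS1. In RNAi-MBS2/mbs1-1 at 0 h AT4G36580 exceeded wild type by 0.54, which did not pass the test (limma adjusted p = 0.591). Without RNAi-MBS2/mbs1-1 0 h replicate 3 the difference was 0.85, with an adjusted p of 0.0496. AT5G63130, with a PB1 interaction domain, had a mean response of 2.49, and the kinase AT5G11410 is described with the line comparisons.

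RNA and ribosome genes numbered 5 and had the smallest median response of the role groups, 2.41, with mean responses between 2.20 and 2.48. The WD40-repeat proteins AT4G04940 and AT3G10530 averaged 7.28 at 0 h and 9.75 at 3 h, and 7.69 at 0 h and 10.10 at 3 h, respectively. AT1G51380, a DEAD-box RNA helicase, averaged 4.99 at 0 h and 7.46 at 3 h. AT5G14580, the mitochondrial polynucleotide phosphorylase that trims RNA ends, averaged 5.31 at 0 h and 7.71 at 3 h. AT4G30800, a ribosomal protein, averaged 7.76 at 0 h and 9.96 at 3 h with responses from 2.04 in RNAi-MBS2/mbs1-1 to 2.44 in 35S:MBS1. Of the 2 genes of the wall and cell surface, AT1G60590, similar to pectin lyases, averaged 5.91 at 0 h and 9.03 at 3 h, and AT5G19240, a glycoprotein held to the membrane by a GPI anchor, averaged 8.60 at 0 h and 11.63 at 3 h.

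For 17 genes no role is given here. Their median mean response was 2.67, and 4 of the 12 genes with the largest mean response were among them. At 0 h AT5G62210 read 6.04, 5.93 and 5.54 in wild type, 6.24, 5.24 and 4.95 in flu, 5.99, 6.19 and 5.65 in 35S:MBS1, 5.93, 5.74 and 5.69 in mbs1-1 and 5.46, 5.46 and 5.97 in RNAi-MBS2/mbs1-1. At 3 h AT5G62210 gave 10.42, 10.09 and 10.04 in wild type, 9.61, 9.54 and 9.20 in flu, 9.94, 10.75 and 10.06 in 35S:MBS1, 10.19, 10.36 and 10.20 in mbs1-1 and 10.31, 10.25 and 10.54 in RNAi-MBS2/mbs1-1. In AT5G62210 the flu arrays were lower than all others at 3 h, and at 0 h the lines overlapped with flu spread widely. Responses of AT5G62210 ran from 3.97 in flu to 4.74 in RNAi-MBS2/mbs1-1. At 0 h AT3G56290 read 7.10, 7.15 and 7.28 in wild type, 7.33, 7.25 and 7.58 in flu, 6.62, 7.16 and 6.58 in 35S:MBS1, 7.03, 6.88 and 6.86 in mbs1-1 and 7.46, 7.04 and 7.12 in RNAi-MBS2/mbs1-1. At 3 h AT3G56290 gave 10.59, 10.82 and 11.26 in wild type, 10.96, 10.77 and 10.69 in flu, 10.92, 11.20 and 11.18 in 35S:MBS1, 11.50, 11.13 and 11.07 in mbs1-1 and 10.93, 11.29 and 11.32 in RNAi-MBS2/mbs1-1. In AT3G56290 flu was highest on average at 0 h and at 3 h mbs1-1 lay above flu while the other lines overlapped. Responses of AT3G56290 ran from 3.42 in flu to 4.32 in 35S:MBS1.

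At 0 h AT1G06540 read 4.99, 4.52 and 4.21 in wild type, 5.54, 4.50 and 4.36 in flu, 5.0, 4.42 and 4.92 in 35S:MBS1, 4.63, 4.79 and 4.44 in mbs1-1 and 4.26, 4.81 and 4.92 in RNAi-MBS2/mbs1-1. At 3 h AT1G06540 gave 8.47, 8.10 and 8.33 in wild type, 7.82, 7.75 and 8.05 in flu, 8.70, 8.29 and 8.33 in 35S:MBS1, 8.50, 8.36 and 8.97 in mbs1-1 and 8.55, 8.29 and 8.60 in RNAi-MBS2/mbs1-1. In AT1G06540 the flu arrays lay below all others at 3 h, and the lines overlapped at 0 h. Responses of AT1G06540 ran from 3.07 in flu to 3.99 in mbs1-1. At 0 h AT4G27657 read 3.72, 4.23 and 3.62 in wild type, 3.55, 3.80 and 3.62 in flu, 3.45, 3.72 and 3.38 in 35S:MBS1, 3.54, 3.70 and 3.37 in mbs1-1 and 4.19, 4.12 and 3.54 in RNAi-MBS2/mbs1-1. At 3 h AT4G27657 gave 6.96, 6.82 and 6.87 in wild type, 7.71, 7.55 and 7.41 in flu, 6.54, 7.24 and 7.26 in 35S:MBS1, 7.68, 7.46 and 7.09 in mbs1-1 and 7.50, 7.51 and 7.35 in RNAi-MBS2/mbs1-1. In AT4G27657 all 0 h arrays were near the lower end of the scale. At 3 h the flu, mbs1-1 and RNAi-MBS2/mbs1-1 arrays lay above those of wild type, and 35S:MBS1 overlapped with it. Responses of AT4G27657 ran from 3.02 in wild type to 3.90 in flu.

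At 0 h AT1G13930 read 9.97, 9.53 and 9.59 in wild type, 9.50, 9.59 and 10.01 in flu, 9.84, 9.95 and 10.19 in 35S:MBS1, 9.95, 9.20 and 9.47 in mbs1-1 and 10.13, 9.58 and 9.70 in RNAi-MBS2/mbs1-1. At 3 h AT1G13930 gave 12.15, 12.07 and 11.99 in wild type, 12.39, 12.47 and 11.86 in flu, 11.78, 12.10 and 12.13 in 35S:MBS1, 12.32, 12.38 and 12.21 in mbs1-1 and 12.25, 12.12 and 12.33 in RNAi-MBS2/mbs1-1. AT1G13930 had the highest 0 h level of the set, and its lines lay close together at both times. Responses of AT1G13930 ran from 2.01 in 35S:MBS1 to 2.76 in mbs1-1. At 0 h AT5G37550 read 5.01, 4.83 and 4.19 in wild type, 4.79, 5.17 and 4.66 in flu, 5.10, 4.71 and 4.69 in 35S:MBS1, 4.91, 4.97 and 4.90 in mbs1-1 and 4.77, 5.48 and 4.97 in RNAi-MBS2/mbs1-1. At 3 h AT5G37550 gave 6.73, 6.66 and 6.93 in wild type, 7.26, 6.83 and 6.90 in flu, 6.80, 7.30 and 7.06 in 35S:MBS1, 7.81, 7.29 and 6.67 in mbs1-1 and 7.58, 7.17 and 7.87 in RNAi-MBS2/mbs1-1. AT5G37550 was among the genes with the narrowest range, with the RNAi-MBS2/mbs1-1 line highest on average at 3 h and wild type lowest. Responses of AT5G37550 ran from 2.10 in wild type to 2.46 in RNAi-MBS2/mbs1-1.

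AT2G15020 averaged 5.54 at 0 h and 8.55 at 3 h. AT3G06520 had the lowest level of the set at both times, 3.22 at 0 h and 6.19 at 3 h. The other genes without a given role are AT3G15357, AT4G16880, AT1G72240, AT5G59050, AT3G23170, AT1G71850, AT5G01260, AT1G11210 and AT5G50100, with mean responses from 2.37 to 2.84. No 2 of the 70 genes are neighbours in the annotation, and none has another probe set matched to it alone.

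Whether these genes already differed between lines at 0 h was compared next. The rule sets no difference between lines at 0 h, but it used the mean of every line at both times through the responses, so the counts of the 11 tested comparisons are not independent of how the genes were chosen. In flu 3 of the 70 genes differed from wild type, all lower, against 0.506% of all probe sets called and 0.299% called lower (limma, all 30 arrays, Benjamini-Hochberg adjusted p under 0.05 over 22746 probe sets). They were CHIL, the flavonoid pathway protein, AT4G30650, the RCI2-type membrane protein, and AT5G11410, a protein kinase. CHIL read 6.84, 6.29 and 5.90 in flu and 7.34, 7.58 and 7.45 in wild type, a log2 difference of -1.11 ± 0.21 (SE, 3 arrays a group, limma adjusted p = 0.0106). AT4G30650 read 6.10, 6.62 and 5.98 in flu and 7.61, 7.19 and 7.41 in wild type, a log2 difference of -1.17 ± 0.26 (SE, limma adjusted p = 0.0306). In both genes the groups did not overlap.

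At 0 h AT5G11410 read 7.43, 7.17 and 7.22 in wild type, 6.91, 5.96 and 6.29 in flu, 7.01, 6.91 and 6.57 in 35S:MBS1, 7.44, 7.50 and 7.13 in mbs1-1 and 6.51, 7.17 and 7.34 in RNAi-MBS2/mbs1-1. At 3 h AT5G11410 gave 9.45, 9.46 and 9.54 in wild type, 9.38, 9.65 and 10.03 in flu, 9.53, 9.72 and 9.47 in 35S:MBS1, 9.70, 9.49 and 9.55 in mbs1-1 and 9.69, 9.53 and 9.77 in RNAi-MBS2/mbs1-1. In AT5G11410 the flu arrays were lower than the wild-type arrays at 0 h without overlap, but flu replicate 1 overlapped with RNAi-MBS2/mbs1-1 and 35S:MBS1. The difference between flu and wild type was -0.89 ± 0.20 (SE, limma adjusted p = 0.0407). Responses of AT5G11410 ran from 2.21 in wild type to 3.30 in flu, and the 3 h levels of the lines overlapped. None of these calls held throughout: of 14 alternative fits, CHIL kept its call in 12, AT4G30650 in 8 and AT5G11410 in 4. When the fit held the compared arrays alone, all 3 were lost, with adjusted p of 0.367 for CHIL, 0.231 for AT4G30650 and 0.541 for AT5G11410. Without flu 0 h replicate 3 all 3 were lost as well, at 0.0835, 0.111 and 0.111, and without wild type 0 h replicate 1 the calls of AT4G30650 and AT5G11410 were lost at 0.195 and 0.223. Without flu 0 h replicate 1 the call of AT4G30650 was lost at 0.0997, and without wild type 0 h replicate 3 at 0.0922. The call of AT5G11410 was also lost without flu 0 h replicate 2 at 0.179, without wild type 0 h replicate 2 at 0.0698, and without wild type 0 h replicate 3 at 0.0933. It was lost as well with the replicate number as a block at 0.061, with quantile normalization at 0.0582 and with median centring at 0.0574.

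No gene of the set was called at 0 h in 35S:MBS1, mbs1-1 or RNAi-MBS2/mbs1-1 against wild type, where 0.0176%, 0.0308% and 0.0308% of all probe sets were called. At an unadjusted limma p under 0.05, 12 of the 70 genes differed in flu, 4 in 35S:MBS1, 5 in mbs1-1 and 13 in RNAi-MBS2/mbs1-1, against 9.42%, 3.86%, 8.39% and 7.42% of all probe sets. The median difference of the set from wild type at 0 h was -0.02 in flu, -0.06 in 35S:MBS1, 0.05 in mbs1-1 and 0.12 in RNAi-MBS2/mbs1-1, beside -0.05, -0.02, -0.06 and -0.04 for all probe sets. These 4 comparisons share the wild-type arrays.

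Under high light, the level of the 70 genes in the 3 MBS1 lines was compared with wild type at 3 h. The rule sets no margin for these differences, but the 3 h means of these lines and of wild type entered it through the responses, and that of wild type also through the flu margin. In mbs1-1 2 genes were called, both higher, against 0.435% of all probe sets and 0.281% called higher. They were AT3G48460, a GDSL lipase, and AT1G66540, a cytochrome P450, which remained in the set because the annotation gives it no CYP symbol. At 0 h AT3G48460 read 7.33, 7.15 and 6.89 in wild type, 6.95, 7.18 and 7.30 in flu, 7.25, 7.28 and 7.35 in 35S:MBS1, 7.28, 7.17 and 7.13 in mbs1-1 and 7.37, 7.14 and 7.25 in RNAi-MBS2/mbs1-1. At 3 h AT3G48460 gave 9.34, 9.16 and 9.38 in wild type, 10.05, 9.99 and 9.37 in flu, 9.43, 9.76 and 9.79 in 35S:MBS1, 10.47, 10.41 and 10.20 in mbs1-1 and 10.10, 9.77 and 9.88 in RNAi-MBS2/mbs1-1. The 0 h arrays of AT3G48460 overlapped in all lines. At 3 h every mbs1-1 array was higher than every array of the other lines, and wild type was lowest with some overlap with flu. The mbs1-1 level exceeded that of wild type by 1.07 ± 0.15 (SE, 3 arrays a group, limma adjusted p = 0.00079).

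At 0 h AT1G66540 read 6.20, 5.79 and 5.65 in wild type, 6.04, 5.32 and 5.74 in flu, 5.77, 5.69 and 5.65 in 35S:MBS1, 5.64, 5.64 and 5.61 in mbs1-1 and 5.80, 5.60 and 5.71 in RNAi-MBS2/mbs1-1. At 3 h AT1G66540 gave 7.91, 7.92 and 8.03 in wild type, 8.08, 8.02 and 8.18 in flu, 8.39, 8.51 and 8.47 in 35S:MBS1, 8.85, 8.70 and 8.40 in mbs1-1 and 8.42, 8.40 and 8.44 in RNAi-MBS2/mbs1-1. At 0 h the mbs1-1 arrays of AT1G66540 lay just below those of wild type and 35S:MBS1, and the other lines overlapped. At 3 h all MBS1 lines were above wild type and flu without overlap, and mbs1-1 overlapped with RNAi-MBS2/mbs1-1 and 35S:MBS1. The mbs1-1 level exceeded that of wild type by 0.70 ± 0.14 (SE, limma adjusted p = 0.0248). This call was lost without mbs1-1 3 h replicate 1, the brighter array, at 0.192, without replicate 2 at 0.0766, without wild type 3 h replicate 1 at 0.0875 and without replicate 2 at 0.151. That of AT3G48460 held with each array left out and was lost when the fit held the compared arrays alone, at an adjusted p of 0.0537. There AT1G66540 was at 0.148.

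**Figure D3:**
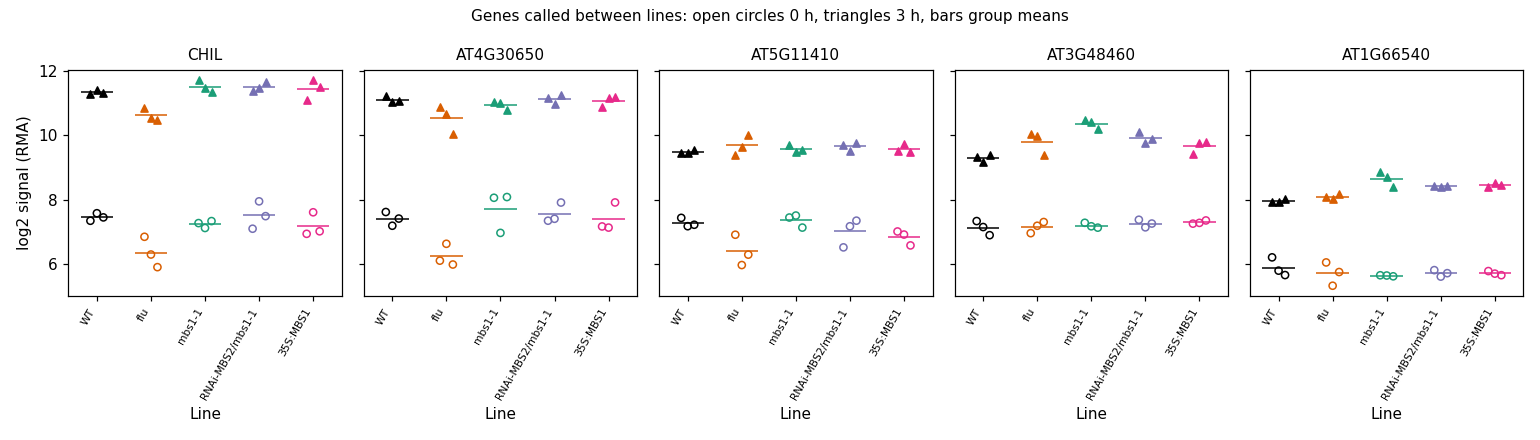
Log2 signal of the 5 genes called in a tested comparison, with 1 point for each array by line and time. CHIL, AT4G30650 and AT5G11410 are lower in flu than in wild type at 0 h, and AT3G48460 and AT1G66540 are higher in mbs1-1 than in wild type at 3 h.

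No gene of the set was called at 3 h in 35S:MBS1 or RNAi-MBS2/mbs1-1 against wild type, where 0.0176% and 0.22% of all probe sets were called. At an unadjusted limma p under 0.05 the counts were 8 in 35S:MBS1, 16 in mbs1-1 and 15 in RNAi-MBS2/mbs1-1, against 3.8%, 10.7% and 5.91% of all probe sets. The set's median difference from wild type was 0.13 in 35S:MBS1, 0.20 in mbs1-1 and 0.17 in RNAi-MBS2/mbs1-1, beside -0.02, 0.08 and -0.03 for all probe sets. The level lay above wild type for 49 of the 70 genes in the first, 53 in the next and 59 in the last, beside 45.2%, 69.5% and 43% of all probe sets. The 3 comparisons share the wild-type arrays, so these shifts are not independent of each other.

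Some differences at 3 h passed the test only under another setting or without 1 array. AT3G30460, the RING-type protein, exceeded its wild-type level by 1.13 in mbs1-1 (limma adjusted p = 0.0788) and by 0.85 in RNAi-MBS2/mbs1-1 (limma adjusted p = 0.415). Both passed the test without wild type 3 h replicate 3, at 0.00941 and 0.0492, with differences of 1.49 and 1.21. AT5G19850, an alpha/beta hydrolase, exceeded wild type in mbs1-1 by 0.52 (limma adjusted p = 0.0553), and it passed at 0.0435 when probe sets with a mean under 5 were left out and at 0.0436 with a trended and robust variance prior. LPR1 exceeded wild type in RNAi-MBS2/mbs1-1 by 0.60 (limma adjusted p = 0.117) and passed at 0.0494 after centring each array on its median.

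How closely the 3 h levels matched was read from the 95% interval of each difference, set against the margin of 0.75 that the rule applied to flu. The whole interval lay within the margin for 57 of the 70 genes in 35S:MBS1, 44 in mbs1-1 and 48 in RNAi-MBS2/mbs1-1. It did so for 38 in all 3 lines at once. The shares of all probe sets were 90.9%, 86%, 89.1% and 80.9%, so in the main fit the share was lower in the set than on the array in each case. The genes were also noisier, with a median residual SD of 0.25 beside 0.20, and the interval reached 0.40 to either side for the median gene. The estimate itself lay within the margin for 69, 65 and 68 of the 70 genes and for 64 in all 3 lines. A single interval lay wholly outside the margin, that of AT3G48460 in mbs1-1.

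**Figure D4:**
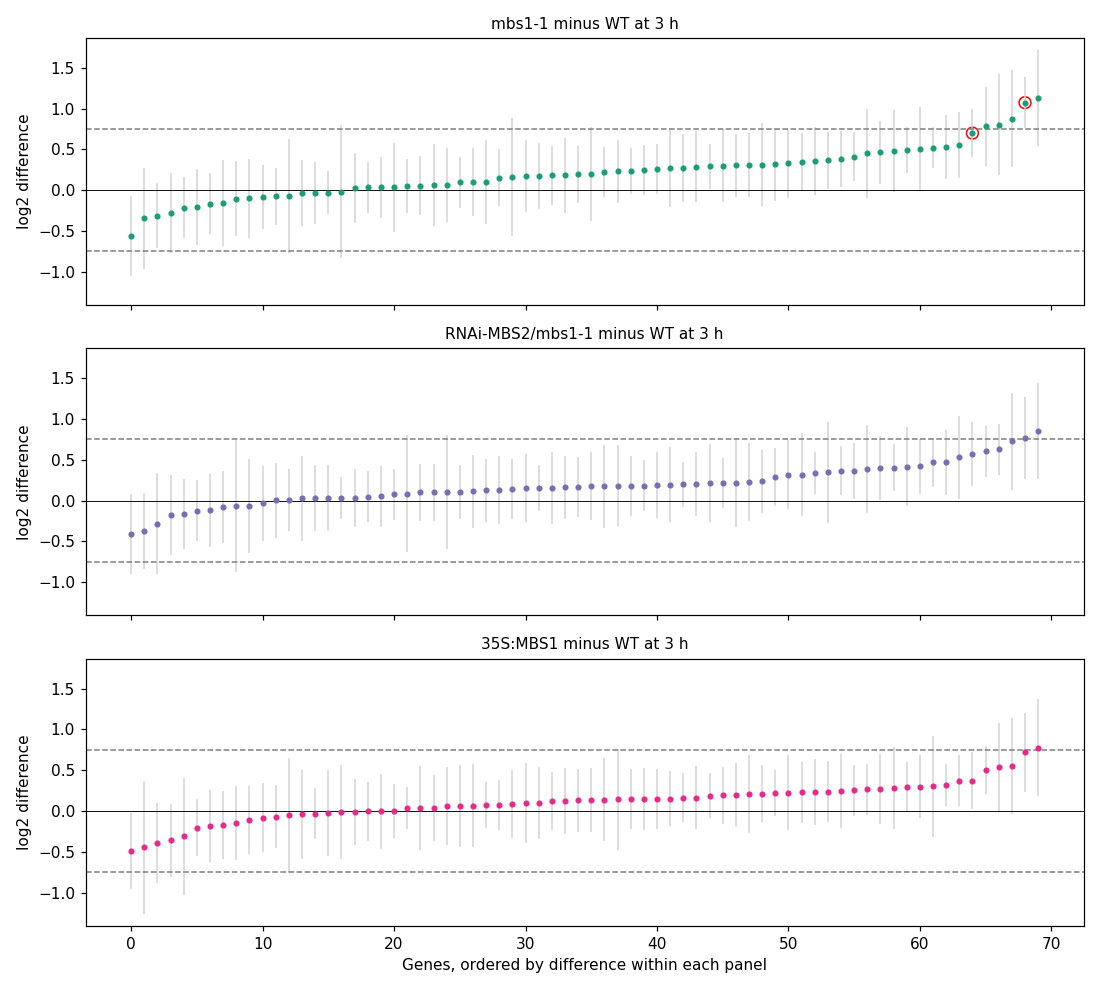
Difference of the 3 h level from wild type (log2) for each of the 70 genes in the 3 MBS1 lines, 1 panel each, with 95% intervals and lines at the margin of 0.75 on either side. Red rings mark the 2 called genes, both in mbs1-1, and from top to bottom 44, 48 and 57 intervals lie inside the lines.

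Between the MBS1 lines no gene of the set was called. RNAi-MBS2/mbs1-1 against mbs1-1 called 0.0044% of all probe sets at 0 h and 0.00879% at 3 h, and 35S:MBS1 against mbs1-1 called 0.0352% and 0.123%. At an unadjusted limma p under 0.05 the counts of the set were 12 at 0 h and 3 at 3 h for the former pair, against 8.78% and 10.4% of all probe sets, and 11 and 13 for the latter, against 8.89% and 12.7%. AT3G48460 came closest at 3 h, with 35S:MBS1 lower than mbs1-1 by a log2 difference of -0.70 (limma adjusted p = 0.0517). It passed at 0.0416 when probe sets with a mean under 5 were left out, at 0.0396 with a trended and robust prior, and at 0.0477 without mbs1-1 3 h replicate 3. In all, 5 of the 70 genes were called in any of the 11 tested comparisons and 65 in none.

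The genes induced in all lines but outside the flu margin are the closest counterparts. There are 17 with flu higher than wild type at 3 h by at least 0.75 and 6 with flu lower, apart from those left out by name. That difference defines them and is not read further. At 3 h against wild type the 17 had median differences of 0.11 in 35S:MBS1, 0.49 in mbs1-1 and 0.58 in RNAi-MBS2/mbs1-1, beside 0.13, 0.20 and 0.17 for the 70 genes. The 6 had medians of -0.16, -0.11 and -0.06. None of the 17 or of the 6 was called in these 3 comparisons. The interval lay within the margin for 2, 0 and 0 of the 17 and for 4, 2 and 5 of the 6. The wild-type 3 h arrays helped choose the 17 and the 6 through the flu difference, and they are the reference here. These medians and counts are thus not independent of that choice, and whether the sets differ from one another was not tested.

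The thresholds cut through a continuous range. Just inside the response threshold were AT5G50100, with a smallest response of 2.01 in wild type, AT1G13930, with 2.01 in 35S:MBS1, and AT3G20240, with 2.01 in flu. Just outside were AT1G51820 with 1.99 in mbs1-1, AT5G09840 with 1.95 in RNAi-MBS2/mbs1-1 and AT3G19970 with 1.95 in the same line. Just inside the margin were AT5G62210, where flu minus wild type at 3 h was -0.74, AT5G63130 with 0.74 and CHIL with -0.72. Just outside it were AT3G57020 with 0.77, AT3G01830 with 0.86 and AT4G33905 with 0.90. The set held 185 genes with a response threshold of 1.5 and 30 with 2.5, and 40 of the 70 genes were chosen whichever single array was left out.

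Other genes of the pathways around CHIL and MSRB6 were read from lists of known members. Many listed genes have no probe set of their own in the annotation used here, and 93 of 837 list entries were measured. Of 46 flavonoid and phenylpropanoid genes 7 were measured, CHIL among them. At 3 h against 0 h 4 were called higher in wild type, 3 in flu, 4 in 35S:MBS1, 4 in mbs1-1 and 2 in RNAi-MBS2/mbs1-1, with none called lower. Over all probe sets 21.1%, 23%, 22%, 25.9% and 21.2% were called higher and 24.4%, 25.1%, 25%, 18.8% and 24.5% lower. DFR, dihydroflavonol reductase of anthocyanin synthesis, had responses of 1.68 in wild type, 0.50 in flu, 1.66 in 35S:MBS1, 0.99 in mbs1-1 and 0.91 in RNAi-MBS2/mbs1-1. DFR was called in 3 lines, and its group means lay between 3.70 and 5.81, towards the lower end of the scale. HCT, an acyltransferase of phenylpropanoid synthesis, had responses of 0.57 in wild type, 0.73 in flu, 0.64 in 35S:MBS1, 0.83 in mbs1-1 and 0.63 in RNAi-MBS2/mbs1-1. HCT was called in all 5 lines. CCR2, of the same list, had responses of 0.51 in wild type, 2.70 in flu, 1.02 in 35S:MBS1, 0.52 in mbs1-1 and 0.13 in RNAi-MBS2/mbs1-1. It was called higher in 2 lines, and its 3 h level in flu exceeded that of wild type by 2.10. The group means of CCR2 lay between 3.11 and 5.99, towards the lower end of the scale. Of these genes CHIL had the largest response in every line, but the rule chose it for large responses, so nothing is read from that.

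Of 56 genes for ascorbate, glutathione and antioxidant enzymes 11 were measured, MSRB6 among them, and 5 were called higher in wild type, 4 in flu and 5 in each of the MBS1 lines. The number called lower was 2 in mbs1-1 and 3 in each of the other 4 lines. SAPX, the stromal ascorbate peroxidase, had responses of 2.03 in wild type, 1.51 in flu, 1.74 in 35S:MBS1, 1.03 in mbs1-1 and 1.37 in RNAi-MBS2/mbs1-1, while TAPX, its thylakoid relative, had -1.01 in wild type, -1.42 in flu, -1.15 in 35S:MBS1, -0.79 in mbs1-1 and -0.72 in RNAi-MBS2/mbs1-1. Both were called in all 5 lines. MSRB5, the relative of MSRB6, had responses of 1.19 in wild type, 0.53 in flu, 1.80 in 35S:MBS1, 0.89 in mbs1-1 and 1.65 in RNAi-MBS2/mbs1-1. Within this list too the member of the set had the largest response in every line. The rule favours that outcome here as well, and nothing is read from it.

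Of 55 heat shock and chaperone genes 4 were measured, none a member of the set. The chaperones of the set described above are thus not among these 4. The numbers called higher were 2 in wild type, 4 in flu, 3 in 35S:MBS1, 2 in mbs1-1 and 1 in RNAi-MBS2/mbs1-1. The shares of all probe sets are those given for the flavonoid list. HSA32 was the gene called lower, in wild type and in RNAi-MBS2/mbs1-1. Its responses were -1.04 in wild type, 1.24 in flu, -0.54 in 35S:MBS1, -0.48 in mbs1-1 and -0.67 in RNAi-MBS2/mbs1-1. AT5G48570 had responses of 2.22 in wild type, 2.56 in flu, 2.29 in 35S:MBS1, 1.44 in mbs1-1 and 0.59 in RNAi-MBS2/mbs1-1. Hop3, a co-chaperone that links HSP70 with HSP90, had responses of 1.96 in wild type, 3.04 in flu, 2.17 in 35S:MBS1, 1.93 in mbs1-1 and 1.04 in RNAi-MBS2/mbs1-1. Its 3 h level in flu exceeded that of wild type by 1.33, and that of ATHSP22.0, a small heat shock protein, by 4.64. In the members AT5G51440 and Hsp70-2 the same difference was 0.47 and 0.33, within the margin by the rule. Of 49 light signalling genes 2 were measured, the bZIP factor HYH with responses of 1.38 in wild type, 1.78 in flu, 1.72 in 35S:MBS1, 1.53 in mbs1-1 and 1.65 in RNAi-MBS2/mbs1-1. The other was FHL, which helps carry phytochrome A into the nucleus, with -3.47 in wild type, -2.84 in flu, -3.44 in 35S:MBS1, -3.64 in mbs1-1 and -3.22 in RNAi-MBS2/mbs1-1. HYH was called higher and FHL lower in all 5 lines.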

How the data were processed

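The study used 30 Affymetrix ATH1 arrays in 10 groups of 3 biological replicates. The authors deposited log2 signals, which the submitters' processing notes tie to RMA and affy. Their versions, and whether the arrays were normalized jointly, were not given in the sources used here. RMA gives no detection call, so low values have no stated background. Of 22810 probe sets 64 controls were left out, and of the other 22746 the platform annotation matches 13513 to 1 gene, 503 to several and 8730 to none. Its symbols are used as given, and updated names and neighbours come from the RefSeq gene table of TAIR10.1. The array files name no genome build and no sequence was used here.

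limma 3.58.1 (R 4.3.3) was used to fit 1 mean per group over the 30 arrays, and its moderated p-values were adjusted by Benjamini-Hochberg across the 22746 probe sets and called below 0.05. The labels give each group as biological replicates, and the number of arrays limits the precision. The 11 tested comparisons are each line against wild type at 0 h, the 3 MBS1 lines against wild type at 3 h, and RNAi-MBS2/mbs1-1 and 35S:MBS1 against mbs1-1 at both times. The steps were tested on simulated data. The plots were made with Python 3.11.15 and matplotlib 3.10.9.

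The genes, lists and alternatives were chosen with earlier results of these data known. Named with all arrays were the 12 largest mean responses, the 6 narrowest and 6 widest ranges, the 6 highest 3 h levels and every called gene. Up to 6 others per role, the 3 genes on each side of each threshold and up to 4 genes of a list were given by their values. Genes that passed only under an alternative were named after their values were seen. Roles come from general knowledge. Of the lists, 3 symbols that turned out to stand for other genes were dropped. The 20 lists held 837 entries, of which 93 were measured, in 19 lists. Of these 2 hold a gene of the set, and only lists near the set's roles are described.

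Replicate numbers are shared by the groups. Same-numbered arrays deviated together with correlations from -0.24 to 0.20, and every pair exceeded 0.1 in 1 of 11 comparisons, so the main fit has no block. The alternatives were a replicate block, a filter on means under 5, quantile normalization, centring, a trended and robust prior, only single-gene probe sets, only the compared arrays, other thresholds and each array left out. Leaving out both brighter arrays was chosen after seeing the data.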

Additional observations from a re-analysis of the deposited data

How the results depend on the processing

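Of the 3 genes called in flu against wild type at 0 h, 0 were called when the fit held the compared arrays alone, 1 without both brighter arrays and 0 to 2 with an array left out. Of the 2 called in mbs1-1 against wild type at 3 h, the counts were 0, 1 and 1 to 3. For RNAi-MBS2/mbs1-1 against wild type 1 gene was called at 3 h after centring and 0 to 1 with an array left out, and 0 to 2 at 0 h. For 35S:MBS1 against mbs1-1 at 3 h 1 gene was called when probe sets with a mean under 5 were left out, 1 with a trended and robust prior, and 0 to 1 with an array left out. In the other 6 comparisons tested, the count stayed at 0 under every alternative run. The set held 185 genes at a response threshold of 1.5, 30 at 2.5 and 64 to 73 with an array left out. Genes with their interval inside the margin numbered 34 to 44 in mbs1-1, 38 to 49 in RNAi-MBS2/mbs1-1 and 47 to 53 in 35S:MBS1 with an array left out. Under the other alternatives they numbered 43 to 51, 46 to 61 and 55 to 64 in the same order. The shares of all probe sets under these alternatives were not counted. No called difference changed direction. With the replicate number as a block, which the correlations of same-numbered arrays do not support in most comparisons, the counts were 2 in flu at 0 h and 2 in mbs1-1 at 3 h, and the lost call was that of AT5G11410 (limma adjusted p = 0.061). Without both brighter arrays AT4G30650, AT5G11410 and AT1G66540 were at 0.208, 0.238 and 0.129. The causes of these changes were not tested. The fits that leave arrays out also hold fewer arrays. The array signal has no detection call here, so the lowest 0 h levels limit the size of the responses that can be read.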
